A study of Mus musculus with 20 samples.

Results

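The regions described here are Late GATA6 regions with ectopic PTF binding: 1435 of the 42403 GATA6-bound regions of the series, 10.1% of the 14243 Late regions and 20.4% of the 7038 regions with ectopic PTF. PTF stands for the pluripotency TFs OCT4, SOX2 and ESRRB, and binding is called ectopic where it was absent before GATA6 was induced and present afterwards. The members were selected on ChIP-seq: the Late class came from k-means clustering of GATA6 binding over the induction, and the PTF class from peak calls. Peak calls rest on cutoffs of significance, but the classes were used as deposited, without the values behind these cutoffs, so no values just inside or outside them are given. Accessibility, the measurement reported below, was not used to choose the members. It is not independent of the rule, however, since the paper reports high accessibility at PTF-bound regions and a rapid gain at ectopic ones.

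ATAC-seq, in which Tn5 transposase inserts adapters into exposed DNA, was run on 20 samples to measure how open their chromatin was. Of these, 17 came from the KH2 ES cell line (C57BL/6 x 129/Sv) carrying a cassette that expresses gata6 when doxycycline is added at 1 ug/mL: d0 without doxycycline (3 samples), 8 h (3), 16 h (3), day 1 (3), day 2 (3) and day 4 (2). The other 3 came from wild type XEN cells of the line X10 (CD1), which received no doxycycline, so that line, genotype and induction cannot be told apart between XEN cells and day 4. All cells were grown on mitomycin C-inactivated feeders, which were removed only by adsorption. Titles name the groups, but the treatment labels differ from them: the samples titled 8 h, 16 h, day 1, day 2 and day 4 carry doxycycline times of 16, 24, 48, 72 and 96 h. The titles were followed.

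GATA6 is the zinc finger factor that specifies the primitive endoderm (PrE), the second lineage of the inner cell mass, and its forced expression turns ES cells into PrE-like cells. OCT4 and SOX2 maintain pluripotency as partners on a composite OCT:SOX motif, and SOX17, a SOXF factor of endoderm, can pair with OCT4 on a compressed form of that motif in which the spacer base is missing. XEN cells are stem cell lines that represent the extraembryonic endoderm.

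To show what these regions look like at the DNA level, the 300 bases centred on the GATA6 summit are printed for 5 members, read from the plus strand of mm10 (GRCm38, RefSeq). Capitals mark the best GATA6, SOX17 or OCT:SOX match of the region that lies in the window, as the authors' FIMO scan placed it. The Nid2 window holds all 3, Stra6 an OCT:SOX and a SOX17 match, Dab2 a GATA6 and a SOX17 match, Col4a1 a GATA6 and an OCT:SOX match that overlap, and Hus1b a SOX17 and a GATA6 match.
Nid2, chr14:19776603-19776902: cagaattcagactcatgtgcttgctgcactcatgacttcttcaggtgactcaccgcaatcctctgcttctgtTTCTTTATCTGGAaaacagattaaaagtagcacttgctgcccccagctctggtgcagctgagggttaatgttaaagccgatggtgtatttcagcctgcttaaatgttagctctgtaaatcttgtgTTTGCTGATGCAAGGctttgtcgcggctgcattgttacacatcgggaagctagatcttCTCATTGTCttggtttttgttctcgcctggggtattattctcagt
Stra6, chr9:58131736-58132035: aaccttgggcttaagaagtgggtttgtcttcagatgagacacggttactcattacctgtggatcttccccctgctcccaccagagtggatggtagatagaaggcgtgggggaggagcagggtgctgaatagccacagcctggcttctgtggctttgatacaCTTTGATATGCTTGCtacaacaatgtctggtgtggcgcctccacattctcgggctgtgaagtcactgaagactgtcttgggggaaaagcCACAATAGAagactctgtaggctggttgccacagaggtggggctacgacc
Dab2, chr15:6390313-6390612: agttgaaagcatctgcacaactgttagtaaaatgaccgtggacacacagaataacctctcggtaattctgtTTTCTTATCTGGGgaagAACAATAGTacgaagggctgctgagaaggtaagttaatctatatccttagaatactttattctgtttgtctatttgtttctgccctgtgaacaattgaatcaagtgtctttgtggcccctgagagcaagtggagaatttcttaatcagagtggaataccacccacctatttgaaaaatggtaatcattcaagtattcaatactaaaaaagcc
Col4a1, chr8:11367482-11367781: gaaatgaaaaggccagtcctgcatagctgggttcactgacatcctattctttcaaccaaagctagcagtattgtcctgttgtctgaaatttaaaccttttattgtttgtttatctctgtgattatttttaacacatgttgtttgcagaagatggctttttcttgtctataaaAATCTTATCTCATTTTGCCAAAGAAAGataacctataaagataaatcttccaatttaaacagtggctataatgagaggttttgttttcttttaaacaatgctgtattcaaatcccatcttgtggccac
Hus1b, chr13:30927636-30927935: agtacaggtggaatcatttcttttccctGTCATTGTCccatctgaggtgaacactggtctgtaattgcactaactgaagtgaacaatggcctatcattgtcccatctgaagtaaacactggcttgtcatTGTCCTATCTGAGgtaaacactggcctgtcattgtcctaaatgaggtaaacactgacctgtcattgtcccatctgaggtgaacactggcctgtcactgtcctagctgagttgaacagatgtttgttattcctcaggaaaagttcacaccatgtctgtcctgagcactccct
All 5 windows lie in introns of annotated transcripts and are named after the nearest protein-coding start site, which for Stra6 and Col4a1 lies downstream of the region, 2.19 kb and 54.8 kb away. The Hus1b window is a run of near-identical repeats in which the letters of the SOX17 match recur.

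The members were mostly closed chromatin that later bound SOX17. By the deposited classes, 1042 (72.6%) were closed, 297 (20.7%) moderate and 96 (6.69%) accessible at d0, against 61.3% closed over all GATA6 regions and 83.9% over the 12558 Late regions without PTF. SOX17 bound 1259 of them (87.7%), against 48.9% of Late regions without PTF, 44.5% of all regions and 86.3% of the 4314 Early&Constant regions with ectopic PTF. In ES cells the histone marks placed 408 members in unmarked chromatin (the class named naive), 349 in facultative heterochromatin, 198 at primed, 135 at poised and 82 at active enhancers, 142 at promoters and 121 in constitutive heterochromatin.

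Most members were distal. Introns held 725 (50.5%) and intergenic DNA 562 (39.2%), while 108 (7.53%) lay in promoters, taken from 1000 bases before to 100 bases after a start site, against 4.24% of Late regions without PTF and 4.93% of all regions. The median distance to the nearest protein-coding start site was 24.6 kb. The members were wider than other Late regions, with a median of 606 bases against 393, while all regions had 524 and Early&Constant regions with ectopic PTF 806. In clusters, 428 members (29.8%) lay within 100 kb of another member, a share that was not taken over all regions. As nearest gene, 41 genes had 3 or more members, led by Foxq1 and Foxa2, both forkhead factors. Foxq1 had 7 members among 17 regions and Foxa2 6 among 31. Arhgef28, Arrdc3, Dab2, Dhx40, Gm379, Lrig3, Plpp3 and Retreg1 had 4 members each, and of these Dab2 encodes an endocytic adaptor of the PrE.

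The members stayed near their starting level through 16 h, opened between day 1 and day 2, held that level at day 4 and were lower in XEN cells. Accessibility is given in RPM, reads scaled to the size of the library, summed over the region and not divided by its width. The median member had 0.066 RPM at d0, 0.0691 at 8 h, 0.0766 at 16 h and 0.109 at day 1. It then reached 0.37 RPM at day 2 and 0.35 at day 4, and stood at 0.178 in XEN cells. The averaged columns carry no spread between replicates, so reads of single libraries, recovered from the decimals of these averages at 840 of the 1435 members (58.5%), were used for every test. Recovery gave 3 libraries each at 8 h, 16 h, day 1 and day 2, and 2 each at day 4 and for XEN cells. Within a group they are lettered from the largest library to the smallest, not by replicate. Recovery gave none at d0, so 8 h served as the baseline.

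**Figure D1:**
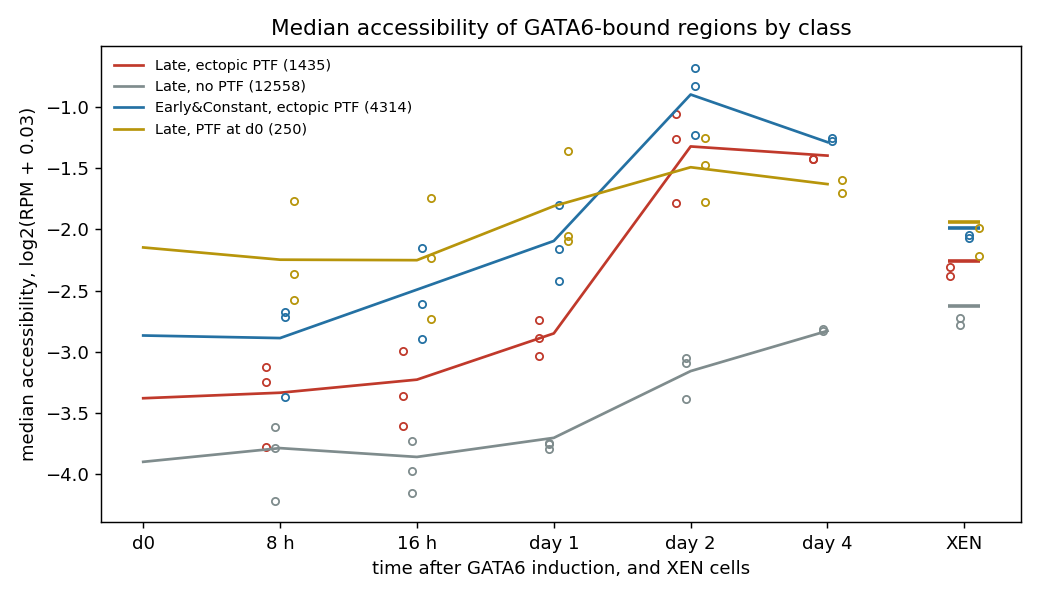
Median accessibility, as log2(RPM + 0.03), of 4 classes of GATA6 region by time after induction and in XEN cells. Lines and bars are medians of the averaged columns over all regions of a class, with the number of regions in brackets, and circles are medians of single libraries over the recovered regions, drawn with a small horizontal offset. Late regions with ectopic PTF (red) step up between day 1 and day 2, where they leave the Late regions without PTF (grey), and in XEN cells the 2 classes are nearest to each other since d0.

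In single libraries the median recovered member had 0.0427, 0.0752 and 0.0844 RPM at 8 h, 0.0918, 0.105 and 0.12 at day 1, and 0.26, 0.387 and 0.45 at day 2. Both day 4 libraries had 0.342 RPM, and the XEN libraries 0.162 and 0.172. No library of 8 h, 16 h or day 1 overlapped one of day 2 or day 4, and the XEN libraries lay between these 2 sets. Behind these medians were 9 to 94.5 reads per member, apart from 7 in the XEN library XEN_b, which was sequenced to 43.32 M reads against 181.2 M to 288.4 M for the others, and in which 243 of the 840 members (28.9%) had 3 reads or fewer.

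Against d0, 84 members (5.85%) were over 2-fold higher at day 1, on log2(RPM + 0.03), with 4.55% of all regions past that limit. At day 2 there were 1171 (81.6%) against 36.8% of all regions, at day 4 there were 1112 (77.5%) against 31.0%, and in XEN cells 653 (45.5%) against 27.7%. Early&Constant regions with ectopic PTF also passed 2-fold in large shares: 84.9% (day 2), 67.5% (day 4) and 38.7% (XEN cells). Their day 1 share, 20.4%, was above that of the members. The rise by day 2 was therefore not particular to the members. In XEN cells 6 members were over 2-fold lower than at d0, with 8.83% of all regions so. These columns share the d0 column and are averages, so the counts carry no test. For 1087 members day 2 was the first column past 2-fold, and 596 (41.5%) were past it at day 2, day 4 and also in XEN cells. The highest value stood at day 2 for 785 members (54.7%), at day 4 for 460 (32.1%) and in XEN cells for 182 (12.7%).

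The libraries were compared by limma over all 24727 recovered regions, with Benjamini-Hochberg adjustment and a call at an adjusted p below 0.05 and a change over 2-fold. These comparisons share the 8 h libraries. At 16 h 0 of 840 members were called by limma (31 had an unadjusted p below 0.05), with 0.00404% of all regions called higher. At day 1 62 were higher (7.38%) against a background of 5.36%, a share close to that of all regions, and by each region's own spread, not shared between regions, 1 was called. The day 1 count fell to 6 without library 8h_c, to 4 without d1_b and to 21 without d1_c.

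At day 2 limma called 689 of 840 members higher than at 8 h (82%) and 0 lower (773 had an unadjusted p below 0.05), with 38.0% of all regions higher and 1.27% lower. At day 4 it called 669 higher (79.6%) and 0 lower (734 unadjusted), with 31.7% of all regions higher and 7.09% lower. In 667 of the 669, each day 4 library was above each 8 h library. Among the 2485 recovered Early&Constant regions with ectopic PTF, limma called 85% higher for day 2 and 69.6% for day 4. The median change of a member was 1.82 on the log2 scale at day 2 and 1.78 at day 4, where all regions had 0.70 and 0.52. Since all regions moved upward, the libraries were also centred on their medians, after which 426 members were higher at day 2 and 496 at day 4 (4 and 1 lower), with backgrounds of 14.4% and 17.0%. Most of the step fell after day 1: limma called 566 members higher at day 2 than at day 1 (67.4%), with 20.7% of all regions called.

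**Figure D2:**
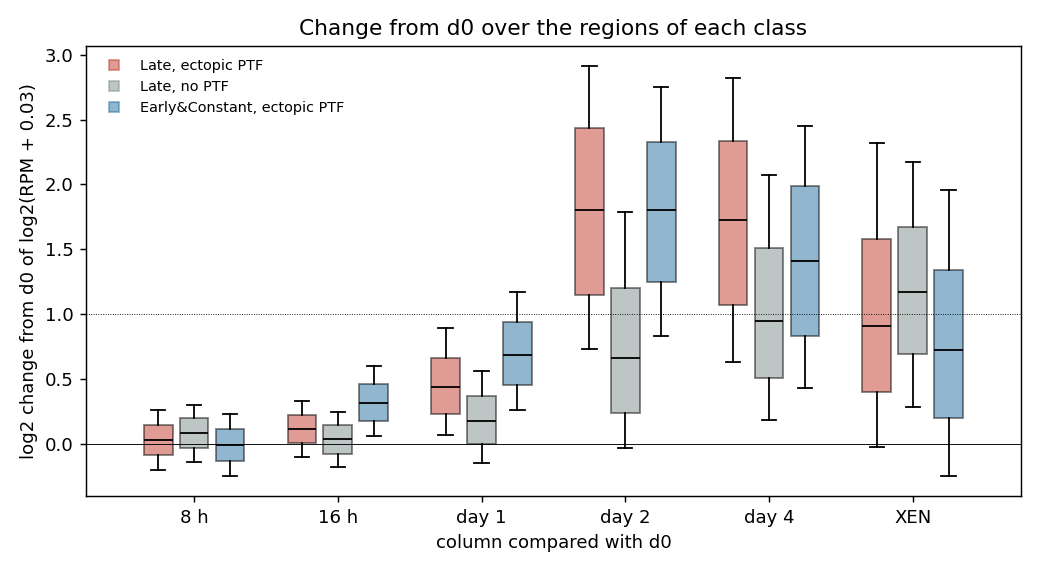
Change of each region from d0, as a difference of log2(RPM + 0.03) in the averaged columns, for 3 classes of region. Boxes span the quartiles with the median as a line, whiskers reach the 10th and 90th percentiles of regions, and the dotted line marks 2-fold. The median member changed by 0.44 at day 1, 1.80 at day 2, 1.73 at day 4 and 0.91 for XEN cells.

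Taken as a whole, Late regions without PTF opened less and later, with XEN cells at the top. Their median was 0.0369 RPM at d0, 0.082 at day 2, 0.111 at day 4 and 0.132 for XEN cells, and 32.8%, 47.3% and 60.0% of them were over 2-fold above d0 in these columns. XEN cells held the highest value for 53.9% of them, against 12.7% of the members. The median member stood above the median Late region without PTF by 0.52 on the log2 scale at d0, by 0.85 at day 1, by 1.84 at day 2, by 1.43 at day 4 and by 0.36 in XEN cells. In single libraries the difference was 0.437 to 0.541 at 8 h, 1.6 to 2.0 at day 2, 1.39 to 1.40 at day 4 and 0.398 to 0.414 in XEN cells, so that the day 2 and day 4 libraries lay apart from all others. Being a summary over the members, this difference was given no test, and it is not independent of the PTF peaks that divide the classes. The difference in XEN cells was small and turned to -0.17 per kb of region and to -0.09 with d0 deciles in the members' proportions.

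Both classes share GATA6 cluster but not SOX17 binding, so the comparison was repeated within each SOX17 class. Among SOX17-bound regions the members were higher by 1.44 at day 2, 0.91 at day 4 and 0.20 for XEN cells. Among regions without SOX17 they were higher by 1.33 at day 2 and 0.84 at day 4, and stood at -0.14 relative to the others in XEN cells. Within either class the members thus lay above at day 2 and day 4.

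Early&Constant regions with ectopic PTF, which bind GATA6 from the first hours, had opened further by day 1. Their median was 0.107 RPM at d0, 0.204 at day 1, 0.507 at day 2, 0.38 at day 4 and 0.222 for XEN cells. Relative to them the members stood at -0.51 on the log2 scale at d0, at -0.76 at day 1 and at -0.11 at day 4. These values are not given per kb, and the members were narrower, with a median of 606 bases against 806. The difference ran from -0.94 to -0.617 in day 1 libraries and from -0.176 to -0.148 in day 4 libraries. Late regions already bound by PTF at d0, 250 in all, began above the members, with 0.196 RPM at d0, and stood at 0.326 at day 2 and 0.293 at day 4.

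As a share of all reads over the recovered regions, the members took 2.72% to 2.98% in 8 h libraries, 4.77% to 5.53% at day 2, 6.33% to 6.41% at day 4 and 5.10% to 5.15% in XEN cells. This share does not depend on library size, and it was largest in both day 4 libraries. The median RPM of a member did not rise from day 2 to day 4 while this share did.

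From day 2 to day 4 few members moved, and the direction depended on scaling. By limma 9 members were higher (1.07%) and 22 lower (2.62%) at day 4, with 2.07% and 8.47% of all regions, but 28 were higher and 7 lower after centring and 31 and 2 after quantile normalisation, because the median of all regions fell by 0.25 between these groups. With each region's own spread 0 were higher and 1 lower. The lower count was 2 without d2_b, 6 without d2_c, 2 without d4_a and 1 without d4_b, and the higher count was 4 or fewer without any of d2_a, d2_b, d2_c, d4_a or d4_b.

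XEN cells differed from day 4 chiefly by lower values. Limma called 4 members higher (0.476%) and 300 lower (35.7%) in XEN cells, with 4.89% of all regions higher and 14.8% lower. The median member changed by -0.81 against -0.25 for all regions and 0.01 for Late regions without PTF, of which 915 of 7153 were higher and 734 lower. That 0.01 joined 2 opposite courses, -0.26 for those with SOX17 and 0.31 for those without it. Early&Constant regions with ectopic PTF changed by -0.74, and 29% of them were lower. After centring the members stood at 7 higher and 285 lower, and 179 were lower with each region's own spread. The lower count was 156 without d4_a, 145 without d4_b and 124 without XEN_b, each of which leaves 1 library in an arm whose spread is then taken from the other groups. Against 8 h, XEN cells had 329 members higher (39.2%) and 5 lower (0.595%), with backgrounds of 23.4% and 10.6%.

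The members that rose most were distal regions that were closed at d0, but a ranking by change favours regions with a low start. Of all members 72.6% were closed at d0, 50.5% lay in introns and 39.2% in intergenic DNA. By the rule that took the largest day 4 changes among those called, 1 per nearest gene, the first was 254 kb upstream of Mdfic, which encodes a MyoD family inhibitor domain protein (chr6:15466369-15467755, intergenic). It had 0.0332, 0.0987 and 0.15 RPM at 8 h, 1.14, 1.55 and 1.98 at day 2, 1.61 and 1.87 at day 4, and 1.93 and 1.62 for XEN cells. Its change at day 4 was 3.96 ± 0.40 (SE, limma adjusted p = 1e-18), and of the 8 it had the smallest change from day 4 to XEN cells, 0.02 ± 0.44 (adjusted p = 0.98).

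An intronic region 175 kb upstream of Esrrg, an orphan nuclear receptor gene, rose from 0.0332 to 0.0938 RPM at 8 h to 1.11 and 1.49 at day 4 (log2 change 3.84 ± 0.40, limma adjusted p = 9.1e-18). It already had 0.21 to 0.311 RPM at day 1 (1.70 ± 0.36, limma adjusted p = 0.00075) and fell to 0.508 and 0.572 for XEN cells. That day 1 call rests on a spread shared between regions, and with each region's own spread 1 member in all was called. A region 165 kb upstream of Atoh1, a proneural factor gene, had 2, 6 and 11 reads at 8 h and 159 and 160 at day 4 (3.90 ± 0.39, limma adjusted p = 1e-18). Both were without overlap between 8 h and day 2 libraries.

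Myosin VI is encoded by Myo6, and the member in its first 7.45 kb (chr9:80172274-80173024, intron) had 0.0332 to 0.0893 RPM at 8 h, 0.935 and 1.1 at day 4, and 0.162 and 0.177 for XEN cells. It rose by 3.49 ± 0.40 at day 4 (limma adjusted p = 1.7e-15) and fell by 2.39 in XEN cells relative to day 4 (SE 0.44, adjusted p = 4.3e-06). A member in Pik3cb, the gene of the p110-beta PI3-kinase subunit, went from 0.0427 to 0.136 RPM at 8 h to 1.14 and 1.3 at day 4 (3.51 ± 0.40, limma adjusted p = 1.9e-15) and had 0.666 and 0.716 for XEN cells. The other 3 of the 8, named after Kcnk2, Ifnk and Hus1b, had changes of 3.59, 3.54 and 3.51 at day 4, and all 8 bound SOX17.

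**Figure D3:**
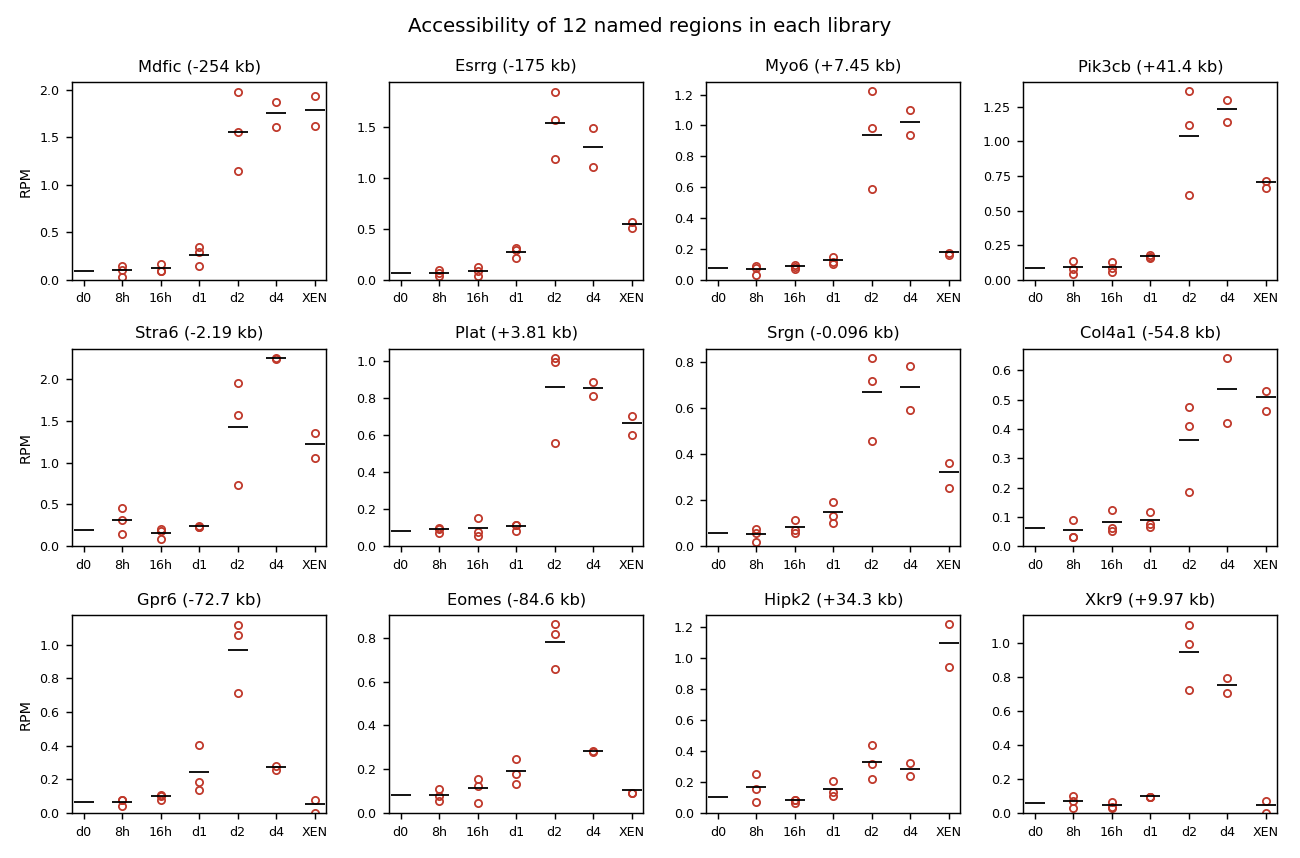
Accessibility in RPM, on linear axes from 0 that differ between panels, of 12 named members in each recovered library (circles) and as the deposited average (dashes, the only value at d0). The averages were taken to include 1 added read per library, which is not known for d0. The panels show the jump between day 1 and day 2, the members that were lower again at day 4 (Gpr6, Eomes), the one that was highest in XEN cells (Hipk2) and one near its starting level there (Xkr9).

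Some members lay near genes of the PrE or of pluripotency. Lists of 113 PrE and pluripotency genes had 28 with a member as nearest start site within 100 kb, and these 48 members, 18 of them recovered, were over 2-fold above d0 in 45 cases at day 2, 42 at day 4 and 24 for XEN cells. Over all 1435 members these shares were 81.6%, 77.5% and 45.5%, and over all regions 36.8%, 31.0% and 27.7%, against which the counts of each list below are to be read. Over all members the median change at day 4 was 1.73, and over the 48 it was 1.94. By limma 16 of the 18 were higher at day 2 and 14 at day 4, and 5 were lower in XEN cells than at day 4. The same 3 calls covered 82%, 79.6% and 35.7% of the 840 recovered members. The 48 members were among 742 regions nearest to listed genes within 100 kb, and members make up 3.38% of all regions. By list, members were 15 of 147 regions for PrE factors, 10 of 177 for signalling and 8 of 135 for basement membrane. They were 9 of 96 for endocytic genes, 2 of 41 for secreted proteins and 6 of 184 for pluripotency genes.

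Of the PrE factor list, 8 genes had 15 members, 14 of them over 2-fold at day 2 and at day 4 and 8 for XEN cells. The member at the promoter of Foxa2, an endoderm forkhead factor (chr2:148045430-148046847), had averages of 0.483 RPM at d0, 2.0 at day 2, 1.73 at day 4 and 0.904 for XEN cells, and its libraries were not recovered.

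Levels near Sox7 and Gata6 were lower than at the Foxa2 promoter. The Sox7 member, 4.94 kb upstream of that SOXF gene, averaged 0.0654 RPM at d0, 0.549 at day 2 and 0.219 for XEN cells. A member 29.2 kb from the start of Gata6 itself averaged 0.135 RPM at d0, 0.798 at day 2, 0.631 at day 4 and 0.281 for XEN cells. The Tbx3 member, 34.0 kb away from a T-box factor gene shared with the pluripotency list, rose at day 2 (1.08 ± 0.35, limma adjusted p = 0.0065), stood at 0.33 ± 0.40 at day 4 (adjusted p = 0.52) and was lower in XEN cells than at day 4 (-1.47 ± 0.43, adjusted p = 0.0075).

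Signalling genes included ligands and a receptor of the PrE. Of 25 genes 6 had 10 members, all 10 over 2-fold at day 2, 9 at day 4 and 5 for XEN cells. The Bmp2 member 34.0 kb from this BMP ligand gene (chr2:133585111-133587006, intergenic) averaged 0.218 RPM at d0, 1.23 at day 2, 1.44 at day 4 and 1.29 for XEN cells, among the members that kept their level. The member in Pdgfra, the receptor that marks the PrE, had 0.113 to 0.207 RPM at 8 h and 0.288, 0.436 and 0.581 at day 2 (1.30 ± 0.36, limma adjusted p = 0.00099) and bound no SOX17. At Bmp6 the member rose by 1.90 ± 0.40 at day 4 (limma adjusted p = 1.3e-05) and was lower in XEN cells (-1.23 ± 0.43, adjusted p = 0.029).

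The basement membrane, which parietal endoderm secretes in bulk, had 8 members at 4 of 17 genes, of which 6 were over 2-fold at day 2, 4 at day 4 and 4 for XEN cells. Upstream of Col4a1, the gene of a type IV collagen chain, the member printed above had 0.0332, 0.0329 and 0.0891 RPM at 8 h, 0.184, 0.41 and 0.475 at day 2, and 0.422 and 0.643 at day 4. It kept 0.462 and 0.531 RPM in XEN cells within the range of day 4 (-0.07 ± 0.43, limma adjusted p = 0.93). The Lamc1 promoter, of the laminin gamma 1 chain, was accessible already at 8 h with 0.956 to 1.57 RPM and had 2.31 and 2.61 at day 4 (1.06 ± 0.41, limma adjusted p = 0.024). The Nid2 member, in the gene of the basement membrane linker nidogen 2, averaged 0.282 RPM at d0 and 0.989 at day 4.

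Endocytic genes had 9 members at 4 of 15 genes, all 9 over 2-fold at day 2 and at day 4 and 4 for XEN cells. At Stra6, which encodes the retinol-binding protein receptor, the member (chr9:58131325-58133525) had 0.142, 0.31 and 0.459 RPM at 8 h, 0.73, 1.57 and 1.95 at day 2, and 2.24 and 2.25 at day 4 (2.89 ± 0.40, limma adjusted p = 6.2e-11). It had 1.35 and 1.06 for XEN cells. At Dab2 the average was 0.0933 RPM at d0, 0.418 at day 2 and 0.544 at day 4. Lrp2 encodes megalin, the partner of cubilin, and its member averaged 0.0709 RPM at d0, 0.786 at day 4 and 0.141 for XEN cells.

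Of the secreted endoderm proteins 2 of 19 genes had a member, and both members rose. The member in Plat, the tissue plasminogen activator gene, had 0.0712 to 0.0987 RPM at 8 h, 0.814 and 0.887 at day 4 (2.91 ± 0.40, limma adjusted p = 2.8e-11), and 0.6 and 0.707 for XEN cells. The promoter of Srgn, the proteoglycan serglycin, went from 0.019 to 0.075 RPM at 8 h to 0.593 and 0.786 at day 4 (3.22 ± 0.40, limma adjusted p = 1.6e-13). Pluripotency genes had 6 members at 6 of 25 genes, 5 of them over 2-fold at day 2 and at day 4 and 2 for XEN cells. The member in Dppa4 averaged 0.206 RPM at d0, 0.837 at day 4 and 0.217 for XEN cells, and that near Dppa3 rose at day 2 (1.90 ± 0.35, limma adjusted p = 6.1e-07). A nearest start site does not show which gene a region acts on.

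Members that were high at day 2 and lower at day 4 were rare, and with each region's own spread 1 member in all was called lower. The region 72.7 kb upstream of Gpr6, a G protein-coupled receptor gene, had 0.712, 1.06 and 1.12 RPM at day 2 and 0.256 and 0.278 at day 4 (-1.72 ± 0.40, limma adjusted p = 0.0013), with 22 reads and 0 reads in the XEN libraries. The region 84.6 kb upstream of Eomes, the T-box factor of early endoderm, had 0.656 to 0.862 RPM at day 2, 0.276 and 0.283 at day 4, and 0.0902 and 0.0923 for XEN cells (-1.38 ± 0.40 from day 2 to day 4, adjusted p = 0.012). The day 2 and day 4 libraries of both regions did not overlap. The other 4 by this rule, named after D430019H16Rik, Golm1, Sox9 and Sv2b, changed by -1.44, -1.38, -1.37 and -1.31.

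The 4 members called higher in XEN cells than at day 4 were led by a region in Hipk2, a nuclear kinase gene (chr6:38802400-38803500, intron), with 0.241 and 0.321 RPM at day 4 and 0.943 and 1.22 for XEN cells (1.84 ± 0.44, limma adjusted p = 0.00058). The others, near Nckap5, Snx33 and Tas2r126, rose by 1.58, 1.20 and 1.10. Among the 4 largest falls, the region in Xkr9, of a family with lipid scramblases, had 0.705 and 0.794 RPM at day 4 and 20 reads and 0 reads in XEN cells (limma adjusted p = 1.7e-14). Those near Olfr822, Bace1 and Dnajc13 had 84 to 127, 107 to 111 and 99 reads per day 4 library and 8, 18 and 16 reads in library XEN_a, with 1 read each in XEN_b. Fitted changes of regions with 0 or 1 read depend on the 0.03 RPM added and are not printed.

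The 4 members with most accessibility at d0 all carried promoter marks in ES cells, and none of their libraries were recovered. At Tomm40, which encodes the mitochondrial import pore, the average was 1.97 RPM at d0, 3.87 at day 2, 3.67 at day 4 and 2.33 for XEN cells. At Dstn, the gene of the actin-depolymerising factor destrin, it was 1.96, 3.52, 3.45 and 1.84, and the intronic region of Zbtb20 stood at 4.51 RPM in XEN cells, the highest value of any member. Over the 86 recovered members of the promoter class 35 were higher at day 4 than at 8 h (40.7%), against 183 of 210 in facultative heterochromatin (87.1%) and 192 of 217 in unmarked chromatin (88.5%). Of these classes promoters had the highest median at d0, 0.423 RPM against 0.0508 and 0.0448. Over all regions 31.7% were called higher, and the part of the d0 level in these shares was not tested.

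Members with and without SOX17 lay slightly apart at day 1 and further apart from day 2. On log2(RPM + 0.03) their medians were -2.825 and -3.146 at day 1, and -1.246 and -2.236 at day 2. Of 744 recovered members with SOX17, 633 were higher at day 4 than at 8 h (85.1%), and of 96 without it 36 were (37.5%), a share near the 31.7% of all regions. The same split stood in Late regions without PTF, where 69% of those with SOX17 and 26.1% of those without it were higher. At d0 the medians of that class on log2(RPM + 0.03) were -3.755 with SOX17 and -4.031 without. Those of the members were -3.38 and -3.44. In 8 h libraries the median of the members was 0.0427 to 0.0844 RPM with SOX17 and 0.0498 to 0.0823 without, while at day 4 it was 0.357 and 0.363 with SOX17 and 0.156 and 0.171 without. Whether SOX17 or another property of these regions goes with the difference was not tested.

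**Figure D4:**
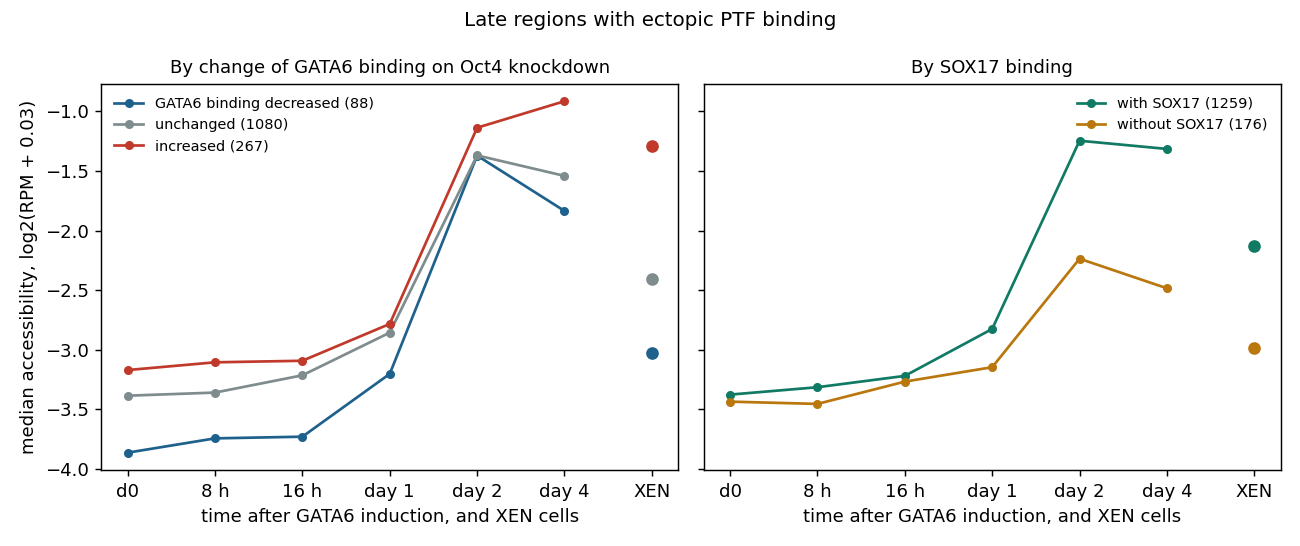
Median accessibility, log2(RPM + 0.03), of the members in the averaged columns, by whether GATA6 binding decreased, was unchanged or increased on Oct4 knockdown (left) and by SOX17 binding (right), with the number of regions in brackets. Members whose GATA6 binding increased on knockdown have the highest medians at day 4 and among XEN cells, and those whose binding decreased have the lowest.

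A further readout was the authors' DESeq2 class of GATA6 binding change under Oct4 knockdown. For this class, siRNA was delivered as GATA6 was switched on and binding was measured at day 2. The rule did not use the class, but the 2 are not independent. The paper reports that sites with decreased binding were enriched for PTF-bound regions, and the rule took members for their PTF peaks. GATA6 binding decreased at 88 members (6.13%), increased at 267 (18.6%) and was unchanged at 1080 (75.3%). Among Late regions without PTF 0.51% decreased and 19.3% increased, among Early&Constant regions with ectopic PTF 12.5% and 8.3%, and among all regions 6.25% and 8.57%. The share that decreased was thus near that of all regions and above that of other Late regions, a comparison that carries no test here.

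The accessibility of these classes differed in its course. The 88 members with decreased GATA6 binding had a median of 0.0387 RPM at d0, 0.357 at day 2, 0.25 at day 4 and 0.093 for XEN cells. The 267 with increased binding had 0.0811, 0.425, 0.501 and 0.379. In limma calls, 52 of 54 recovered members with decreased binding were higher than at 8 h at day 2, 47 at day 4 and 11 for XEN cells. Of 159 with increased binding 137 were higher at day 2, 150 at day 4 and 113 for XEN cells. Relative to day 4, XEN cells were lower at 27 of 54 with decreased binding (50%) and at 33 of 159 with increased binding (20.8%). Over all regions limma called 38.0% higher at day 2, 31.7% at day 4 and 23.4% for XEN cells, and 14.8% lower in XEN cells than at day 4, so that the 11 of 54 (20.4%) lay near the share of all regions.

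The members had fewer GATA letters at their summit than Late regions without PTF and, before SOX17 binding was matched, more SOX letters. In 300-base windows around the GATA6 summit, searched on both strands, AGATAA was in 42.3% of members against 53.9% of Late regions without PTF, 70.7% of Early&Constant regions with ectopic PTF and 58.1% of all regions. ATTGT, the SOX core, was in 69.3% of members against 61.5%, 61.3% and 55.3%. Among SOX17-bound regions alone it was in 73.9% of members and 72.7% of Late regions without PTF, which is hardly a difference, while AGATAA was in 41.9% and 50.4%. Late regions bound by PTF at d0 had AGATAA in 20.0% and ATTGT in 65.6%. The deposited FIMO matches, which cover the whole region and therefore favour wide regions, gave a GATA6 match in 83.8% of members and 86.6% of Late regions without PTF. The best GATA6 match lay at a median of 84 bases from the summit in members and 48 in those regions. For SOX17, OCT:SOX and ESRRB matches the distances were 105, 157 and 159 bases in members and 70, 108 and 111 in those regions. The greater distance in members, which were also wider, was therefore not particular to GATA6.

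Of the OCT letters, the compressed order had the largest ratio between members and Late regions without PTF. The rule took members for their PTF peaks, and that class has none, so an excess of OCT letters is tied to the rule. ATGCAAAT, the octamer of OCT4, was in 52 member windows (3.62%) against 0.956% of Late regions without PTF, 3.62% of Early&Constant regions with ectopic PTF and 3.73% of all regions. TTGTNATGC, the canonical OCT:SOX order with a spacer, was in 0.697% against 0.526%, 0.765% and 1.81%. TTGTATGC, the compressed order, was in 45 windows (3.14%) against 0.669%, 2.23% and 1.03%, and among SOX17-bound regions in 3.34% of members and 0.7% of Late regions without PTF. These letters can overlap: a compressed site that goes on with AAAT also holds the octamer, and a SOX core may lie inside either OCT:SOX form.

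4 of the compressed sites extend into a full octamer, and they are printed to show this layout, in 20 bases of the plus strand of mm10 with the compressed letters in capitals. They were chosen after their values were seen.
Bmp2, chr2:133723996-133724015: ttgctaTTGTATGCaaattc
Prickle2, chr6:92436582-92436601: gtttgtTTGTATGCaaatga
Txk, chr5:72697956-72697975: gatgcaTTGTATGCaaatac
Trpc7, chr13:56992032-56992051: gtcttaTTGTATGCaaatgg
The Bmp2 region, 172 kb from that gene, had averages of 0.0877 RPM at d0, 0.914 at day 2, 0.73 at day 4 and 0.598 for XEN cells, and its GATA6 binding increased on Oct4 knockdown. The other 3 were weak, with 0.1 to 0.125 RPM at day 2. A region in Cd247 held 5 tandem copies of the compressed letters, and there GATA6 binding decreased on knockdown. Over members, the compressed letters were in 7 of 88 with decreased binding (7.95%), 33 of 1080 unchanged (3.06%) and 5 of 267 with increased binding (1.87%).

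**Figure D5:**
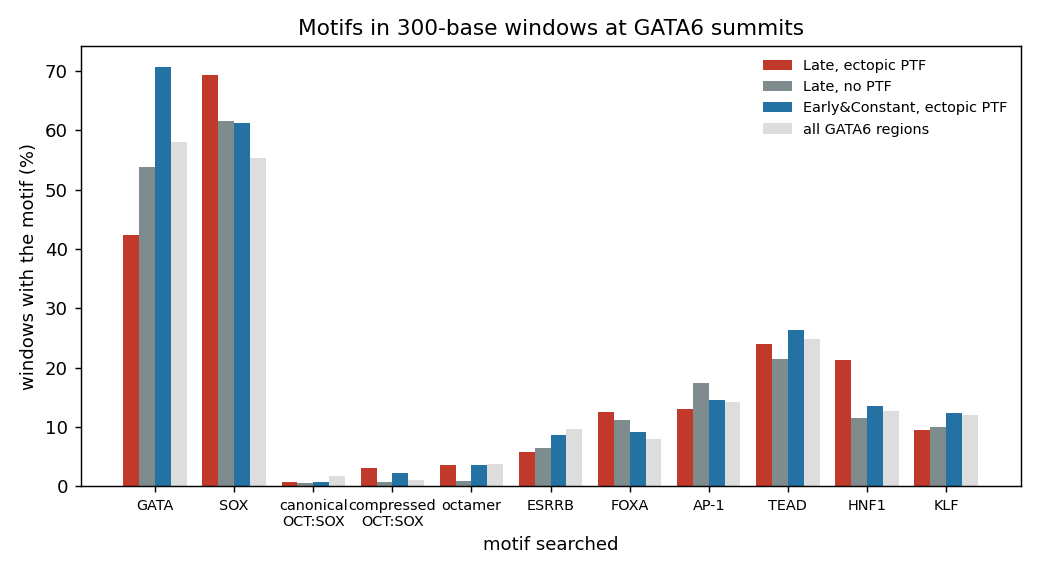
Percentage of 300-base windows at GATA6 summits that hold each motif on either strand, for the 1435 members (red), Late regions without PTF (grey), Early&Constant regions with ectopic PTF (blue) and all 42403 regions (light grey). Of these 4 sets the members stand lowest for GATA (42.3%) and highest for SOX (69.3%; SOX17-bound Late regions without PTF, not drawn, stand at 72.7%), the compressed OCT:SOX order (3.14%) and HNF1 (21.3%).

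HNF1 letters, GTTAAT, were in 305 members (21.3%) against 11.5% of Late regions without PTF, 13.6% of Early&Constant regions with ectopic PTF and 12.7% of all regions. Members with them changed by a median of 1.98 from d0 to day 4 and by -0.90 from day 4 to XEN cells, and members without them by 1.63 and -0.64. They were in 30 of 88 members with decreased GATA6 binding on Oct4 knockdown (34.1%), 231 of 1080 unchanged (21.4%) and 44 of 267 with increased binding (16.5%). The remaining motifs were closer between members and other Late regions: FOXA TGTTTAC in 12.5% against 11.2%, TEAD GGAATG in 24.0% against 21.4%, KLF GGGTGTG in 9.48% against 9.95% and ESRRB AAGGTCA in 5.78% against 6.43%. AP-1 TGANTCA was in 13.1% against 17.5%. Base composition was alike, with a median GC of 44.0% in members and 44.3% in Late regions without PTF.

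The identity of the cells was checked only through GATA6-bound regions nearest to marker genes, some of which are members. Summed over 87 regions of 8 PrE markers, accessibility was 16.4 RPM at d0, 65.9 at day 2, 55.2 at day 4 and 37.8 for XEN cells. At 66 regions of 8 ES cell markers it was 22.5, 36.8, 20.5 and 12.5 RPM, and at 16 regions of 7 of the 8 feeder fibroblast markers 1.62, 3.47, 2.53 and 3.02 RPM. The part of feeder cells in the results was not tested. In bulk samples, more open cells and more open chromatin per cell cannot be told apart.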

How the data were processed

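Per the labels and the study's methods, the authors used cutadapt for trimming and Bowtie2 for alignment of ATAC-seq reads to mm10, discarded duplicated and poorly mapped reads, shifted ends for Tn5 and counted short fragments in each GATA6 peak with bamsignals. Versions are not given in the sources used here. The deposited accessibility values are RPM, 1 averaged column per group in a table of 105 columns. In the groups that were recovered, the averages resolved into at least 1 read per library in every region, which was taken as an added read. Whether the d0 column holds such a read is not known. A further 52 columns belong to other assays, sample by sample, and were left out. The motif score and match positions (FIMO, JASPAR) and all classes were used as the authors deposited them. Members and gene lists were chosen with earlier results of these data known.

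The planned test assumed 1 column per sample. Since the columns are averages, whole reads were recovered at 24727 regions from values with full decimals, and the added read was subtracted. The search was tested on simulated data of 1 to 3 libraries, with all reads right. XEN cells gave 2 libraries for 3 samples and d0 none. Per the study's methods the replicates were separate cell cultures, and p-values measure the spread between the libraries recovered. limma 3.58.1 (R 4.3.3, trended variance) was fitted to log2(RPM + 0.03), a scale that understates the change of low regions. It estimated a spread common to all regions of a given level, so that SEs hardly differ between regions. In a self-test of day 2 against 8 h on 24727 regions, 34 of 100 regions changed 2-fold and 98 of 100 changed 4-fold were called, with 1 false call. The simulated regions varied independently, without shifts of whole libraries, whereas the 8 h libraries held 2768 to 5090 RPM over the recovered regions. The rate of false calls in these data is therefore not known from it. Regions were annotated with GENCODE vM21 on GRCm38 and sequences read with samtools 1.23.1 in Python 3.11.15. The text names the 8 members with the largest rise at day 4, 6 with the largest fall from day 2 to day 4, 4 with the highest d0 value, 4 each with the largest rise and fall in XEN cells, and up to 24 nearest to listed genes. The values of a listed gene are not reported here. Alternatives were other pseudocounts, scalings, filters, weightings and left-out libraries, and, added after seeing the data, each region's own spread.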

Additional observations from a re-analysis of the deposited data

How the results depend on the processing

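No paired analysis was possible because the recovered libraries carry no replicate number. XEN_b is shallow, day 4 and XEN cells have 2 libraries each, and the d0 column has none, so low regions and counts that rest on these groups are the least certain. Of 133 alternative values 64 stayed within the spread or within 1.5 times, 67 moved and 2 reversed, and unless said otherwise the cause was not tested.

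Over 2-fold above d0, the 1171 members of day 2 became 697 after centring and 655 after quantile normalisation. A pseudocount of 0.15 RPM, which shrinks low values, gave 728 at day 4 and 311 for XEN cells, and centring gave 402 in XEN cells. The excess over Late regions without PTF (1.84, 1.43 and 0.361 on the log2 scale for day 2, day 4 and XEN cells) was 2.1, 1.61 and 0.416 with a pseudocount of 0.006 RPM and 1.16, 0.939 and 0.219 with 0.15 RPM. It was 1.48, 1.33 and 0.473 after quantile normalisation, 1.47, 1.06 and 0.124 with a mean of at least 0.05 RPM, and 1.47, 0.963 and 0.143 with SOX17 classes in the members' proportions. With d0 deciles in the members' proportions it was 1.12, 0.738 and -0.0855, per kb 1.41, 0.895 and -0.168, and over the recovered regions 0.385 in XEN cells.

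Limma calls moved as follows. With a pseudocount of 0.15 RPM, 1 member was higher at day 1, 433 at day 4 and 155 for XEN cells against 8 h, day 4 against day 2 gave 1 higher and 5 lower, and XEN cells against day 4 gave 2 higher and 150 lower. With 0.006 RPM, day 4 against day 2 gave 2 higher and 7 lower, and XEN cells against day 4 gave 2 higher. Centring gave 12 higher at day 1 and 426 at day 2, 28 higher and 7 lower for day 4 against day 2, and 7 higher for XEN cells against day 4. Quantile normalisation gave 18, 401, 31, 2 and 24 in that order. With each region's own spread 1 was higher at day 1, 0 higher and 1 lower for day 4 against day 2, and 179 lower for XEN cells against day 4. Leaving out 1 library gave 4 to 78 higher at day 1 and 637 to 730, 577 to 710 and 276 to 368 for day 2, day 4 and XEN cells against 8 h. For day 4 against day 2 it gave 0 to 4 higher and 1 to 25 lower, and for XEN cells against day 4 it gave 1 to 3 higher and 124 to 240 lower. Where it leaves 1 library in an arm, that library is assumed to vary like the other groups.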

Other observations

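Of the 1435 members, 183 (12.8%) were not over 2-fold above d0 in any column, and 96 were already accessible at d0, with a median of 0.631 RPM there, 1.4 at day 2, 1.2 at day 4 and 0.707 for XEN cells. Members in constitutive heterochromatin, 121 in all, had medians of 0.0505 RPM at d0, 0.243 at day 2, 0.23 at day 4 and 0.0976 for XEN cells, and 38 of the 79 recovered (48.1%) were lower in XEN cells than at day 4 by limma. Those at primed enhancers, 198 in all, had 0.0939, 0.428, 0.407 and 0.176 RPM, with 50 of 114 lower in XEN cells (43.9%), against 72 of 210 in facultative heterochromatin (34.3%) and 75 of 217 in unmarked chromatin (34.6%). The difference between these classes was not tested.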
